A study of Mus musculus with 4 samples.

Results

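Open chromatin without a detectable footprint was described in natural killer cells, the cytotoxic lymphocytes of innate immunity. DNase-seq maps the places where the nuclease DNase I cuts chromatin. The 4 libraries came from primary natural killer cells of adult female mice of strain B6CASTF1/J, aged 2 months, and formed 1 group with no treatment and no second condition. The labels call them biological replicates 1 to 4 with a biosample each and 1 shared donor entry, and do not say which animals or how many gave each. They are called libraries 1 to 4 here, and the spread between them may be partly technical. Each library has a longer and a shorter peak list, a per-base list of false discovery rates (FDR) and a footprint list. The peaks of the longer lists that touch or overlap were merged over the 4 libraries on the 19 autosomes, which gave 75963 regions. Of these, 26632 overlapped a shorter-list peak in at least 3 libraries and are called open. The regions described were chosen by the measured peaks and footprints, as the open regions that overlap no footprint of any library. There were 416 of them, 1.56% of the open regions (95% Wilson interval 1.42 to 1.72%, counting error only), and the other 26216 held at least 1 footprint. The presence of peaks, the signal and the absence of footprints were therefore used in the choice and are given without a test for these 416 regions. Tests of them appear only for regions chosen on 3 libraries and measured in the library left out.

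Inside open chromatin, a protein that sits on DNA shields the bases under it from DNase I, and the short stretch of few cuts between well-cut flanks is called a footprint. Stable binders such as the insulator protein CTCF leave clear footprints, and many factors that stay on DNA only briefly leave weak ones or none. At active mammalian genes the most accessible stretch lies just upstream of the transcription start, often inside a CpG island, a stretch of DNA rich in G, C and the dinucleotide CpG. There general promoter factors of the SP, NRF1, NF-Y and ETS families bind, and the first nucleosomes of the gene follow downstream.

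The sequences of 3 regions without footprints are shown with the nearest open region that has footprints, because this pairing recurred across the set. They are the mm10 plus strand, read from the GRCm38 reference rather than from the libraries, and capitals mark bases inside a footprint of at least 3 libraries. The regions without footprints have no capitals, and only their central 150 bases are given. The neighbours are given whole.
Upstream of Shf, without footprints, chr2:122377806-122377955: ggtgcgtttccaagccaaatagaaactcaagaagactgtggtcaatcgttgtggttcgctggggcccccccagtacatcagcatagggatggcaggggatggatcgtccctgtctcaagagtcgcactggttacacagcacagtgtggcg
Upstream of Shf, neighbour with footprints, chr2:122377341-122377600: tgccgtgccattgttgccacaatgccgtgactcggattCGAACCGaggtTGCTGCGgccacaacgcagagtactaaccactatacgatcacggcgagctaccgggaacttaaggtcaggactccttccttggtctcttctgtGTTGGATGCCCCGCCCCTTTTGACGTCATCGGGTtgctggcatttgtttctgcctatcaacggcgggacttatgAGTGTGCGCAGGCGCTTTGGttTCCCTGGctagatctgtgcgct
Distal to Ccne1, without footprints, chr7:38085796-38085945: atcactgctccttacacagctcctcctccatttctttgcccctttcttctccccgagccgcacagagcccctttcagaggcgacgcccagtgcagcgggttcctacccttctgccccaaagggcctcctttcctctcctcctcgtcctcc
Distal to Ccne1, neighbour with footprints, chr7:38084861-38085140: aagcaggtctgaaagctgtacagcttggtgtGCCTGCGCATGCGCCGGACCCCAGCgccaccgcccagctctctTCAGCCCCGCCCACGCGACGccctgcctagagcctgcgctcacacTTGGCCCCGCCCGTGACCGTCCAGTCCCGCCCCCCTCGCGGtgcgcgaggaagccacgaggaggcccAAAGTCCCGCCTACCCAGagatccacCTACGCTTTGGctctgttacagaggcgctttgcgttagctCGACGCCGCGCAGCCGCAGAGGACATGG
Ino80 first kilobase, without footprints, chr2:119476996-119477145: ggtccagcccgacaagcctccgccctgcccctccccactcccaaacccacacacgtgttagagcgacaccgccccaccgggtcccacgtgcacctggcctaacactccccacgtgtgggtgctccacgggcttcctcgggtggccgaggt
Ino80, neighbour with footprints, chr2:119477801-119478100: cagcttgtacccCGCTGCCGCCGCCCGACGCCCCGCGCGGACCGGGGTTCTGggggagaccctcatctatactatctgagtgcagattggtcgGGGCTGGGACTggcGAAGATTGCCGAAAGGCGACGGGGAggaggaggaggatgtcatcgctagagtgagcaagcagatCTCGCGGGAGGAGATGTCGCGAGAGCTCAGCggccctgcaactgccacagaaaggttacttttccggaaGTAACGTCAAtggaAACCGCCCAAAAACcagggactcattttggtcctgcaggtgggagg
Of the neighbour's bases, 28.8% near Shf, 51.1% near Ccne1 and 43.7% at Ino80 lay in footprints. The capitals near Shf cover matches to the consensus letters of CRE (TGACGTCA), SP/KLF (GGGGCGGGG) and NRF1 (CGCANGCG), those near Ccne1 cover NRF1 and EGR (GCGTGGGCG), and those at Ino80 cover C/EBP (TTGCNNAA) and overlap only in part a match to ETS of the GABPA type (CCGGAAGT). The central windows of the regions without footprints near Shf and Ccne1 held none of the 29 motifs searched, and that at Ino80 held an E-box of the E protein type (CACCTG).

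A second set shows the base composition at 5 promoters, with every CpG in capitals. Zfp143, Atp1b3 and Cd82 are among the strongest regions of the set, and Vcp and Tgfbr2 come from the gene lists.
Zfp143, chr7:110061966-110062115: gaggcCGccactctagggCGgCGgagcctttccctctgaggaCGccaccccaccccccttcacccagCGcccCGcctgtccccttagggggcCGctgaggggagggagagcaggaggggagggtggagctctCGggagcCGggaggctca
Atp1b3, chr9:96363746-96363895: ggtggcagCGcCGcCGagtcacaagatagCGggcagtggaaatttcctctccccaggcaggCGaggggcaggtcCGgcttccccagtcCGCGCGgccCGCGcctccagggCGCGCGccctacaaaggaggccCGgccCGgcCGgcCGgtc
Cd82, chr2:93462046-93462195: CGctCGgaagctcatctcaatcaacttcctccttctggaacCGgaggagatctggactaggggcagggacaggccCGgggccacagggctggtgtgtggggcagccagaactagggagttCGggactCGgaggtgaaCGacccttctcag
Vcp, chr4:42999816-42999965: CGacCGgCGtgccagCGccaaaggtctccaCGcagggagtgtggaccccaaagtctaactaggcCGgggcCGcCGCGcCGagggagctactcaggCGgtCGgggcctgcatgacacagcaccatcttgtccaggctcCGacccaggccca
Tgfbr2, chr9:116174675-116174824: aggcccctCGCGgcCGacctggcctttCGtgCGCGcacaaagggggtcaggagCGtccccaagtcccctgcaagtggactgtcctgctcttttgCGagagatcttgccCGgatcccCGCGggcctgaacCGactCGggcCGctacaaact
These windows of 150 bases held 9 CpGs at Zfp143, 18 at Atp1b3, 7 at Cd82, 13 at Vcp and 14 at Tgfbr2. The median of all 416 regions was 11, against 6 in the open regions with footprints. The last sequence, distal to Esyt3, is the exception of the set: it lies far from any other open region and carries a match to the CTCF consensus, here in capitals.
Distal to Esyt3, chr9:99376716-99376865: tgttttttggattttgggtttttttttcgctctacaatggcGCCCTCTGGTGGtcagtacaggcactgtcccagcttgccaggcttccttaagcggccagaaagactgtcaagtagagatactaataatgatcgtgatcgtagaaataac

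The regions without footprints were weak and wide. The signal is the authors' value per peak, in a unit the files do not state, and a region takes its highest overlapping peak. The median signal of the regions without footprints was 0.952, 1.07, 1.10 and 0.798 in libraries 1 to 4, against 1.80, 2.02, 2.92 and 1.58 in the open regions with footprints. The ratio of these medians was 0.485 ± 0.072 (SD, n = 4 libraries), lowest in library 3 at 0.379. No region without footprints passed 2.50, 3.40, 3.80 and 2.53 in libraries 1 to 4, while the strongest region with footprints reached 90.6 to 96.5. Their median width was 420 bp (quartiles 341 to 541), against 280 bp (220 to 380). In the zone 200 to 1000 bp downstream of a 5′ end, described further on, they were not wider than footprinted regions of the same signal, with mean widths of 475 and 535 bp.

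Absence of footprints thinned out steadily as the signal grew. With the open regions cut into 10 equal bins by their mean signal rank within libraries, 6.19% of the weakest bin had no footprint, then 3.60%, 2.67%, 1.99%, 0.751%, 0.338% and 0.0751%, and 0 of 7989 regions in the top 3 bins, which allows a share of up to 0.0376% (3 counts, counting error only). Weak promoter regions, that is those within 1 kb of a protein-coding 5′ end, lacked footprints far more often than weak regions elsewhere. In the weakest bin the shares were 19.9% of 687 promoter regions and 1.42% of 1977 other regions, and in the fourth bin 6.13% of 604 and 0.777% of 2059.

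**Figure D1:**
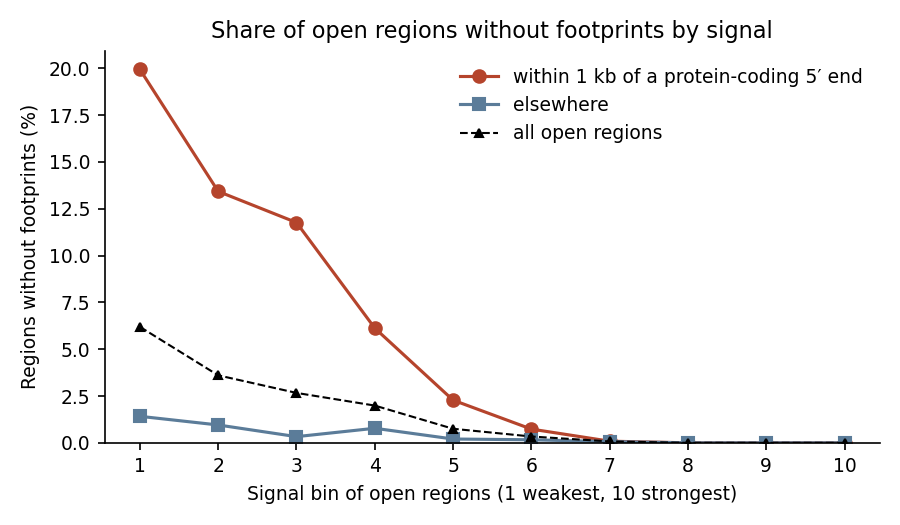
Percentage of open regions without footprints (vertical axis) in 10 bins of mean signal rank, for regions within 1 kb of a protein-coding 5′ end (circles), elsewhere (squares) and all (triangles, dashed). The promoter share is highest at 19.9% in the weakest bin and 0 in bins 8 to 10, and the share elsewhere stays at or below 1.42%.

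The regions recurred in fewer libraries than open regions with footprints. A shorter-list peak was present in all 4 libraries for 182 of them (43.8%), against 74.2% of the open regions with footprints, and in exactly 3 for the other 234. Library 4, with the fewest peaks (25063 in the shorter list, against 31024, 33295 and 50841 in libraries 1 to 3), was the missing library for 130 of the 234. Libraries 1, 2 and 3 were missing for 35, 40 and 29. A shorter-list peak was present in 91.6, 90.4, 93.0 and 68.8% of the regions without footprints in libraries 1 to 4. Open regions with footprints had 96.2, 98.5, 99.6 and 79.8%, so library 4 was the lowest for both. Counting both lists, 228 regions without footprints had a peak in every library and 188 lacked one in a single library. The bases with an FDR below 0.001, a measure from the same cuts as the peaks, covered a median of 340, 360, 400 and 222.5 bp of a region without footprints in libraries 1 to 4, against 240, 240, 260 and 220 bp of a region with footprints. Since the regions without footprints were wider, the median share of a region covered was 84.5, 92.5, 100 and 51.5%, against 100, 100, 100 and 88.6%. By length they held more such bases in libraries 1 to 3 and barely more in library 4. By share they held fewer in libraries 1, 2 and 4.

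The count moves with the definition. Requiring a peak in all 4 libraries left 182 regions and requiring 2 gave 779. Counting only footprints that overlap a footprint of another library raised the number to 1678, 6.30% of the open regions. With library 1 or library 2 left out and a peak required in each of the other 3, the numbers were 266 and 257. Just outside the rule, 214 open regions had a single footprint in a single library, with a median mean signal of 0.951 and a width of 420 bp, against 0.865 and 420 bp inside it. The 363 regions with peaks in only 2 libraries and no footprint had a median mean signal of 0.453. An absent peak is entered as 0 in these means, so absent peaks alone lower them.

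A choice on 3 libraries alone leaves free whether absence of footprints carries over to the library left out. For each library in turn, regions were chosen on the other 3 alone, with a shorter-list peak in all 3, and regions without footprints were set against regions with footprints weighted to the same signal distribution in the choosing libraries. In the held-out library a footprint was found in 16.9% of 266, 12.1% of 257, 22.3% of 278 and 34.3% of 490 regions without footprints for libraries 1 to 4, against 85.3%, 89.0%, 93.9% and 60.5% of regions with footprints. The difference was -60.8 ± 23.3 percentage points (SD, n = 4), with the regions without footprints lower in 4 of 4 libraries. The exact two-sided sign-flip test gave p = 0.13, the smallest that 4 libraries allow, and 0.375 after Benjamini-Hochberg adjustment over 3 such tests, so the threshold of 0.05 could not be reached. The choices overlapped in their libraries, so the 4 differences were not independent, although the test treats them so. The same holds for the other tests of this kind, and their p-values are descriptive only. Library 4 differed least.

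The presence of a peak differed less. In the held-out library a shorter-list peak was present in 83.5%, 82.1%, 88.1% and 57.6% of regions without footprints, against 85.0%, 93.1%, 98.6% and 44.1% of regions with footprints, a difference of -2.39 ± 11.4 percentage points (SD, n = 4; exact sign-flip p = 0.875, adjusted 1). Library 4 went the opposite way from the others. The median signal of regions with a peak there was 1.08, 1.27, 1.50 and 0.778 without footprints, against 1.07, 1.21, 1.94 and 0.730 with footprints. The ratio averaged 0.976 ± 0.135 (SD, n = 4; exact sign-flip p = 1, adjusted 1), and 3 of 4 libraries lay slightly above 1. It turned to 1.01 without library 3 and to 1.00 without library 4. Without the weighting to equal signal the ratio was 0.439.

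**Figure D2:**
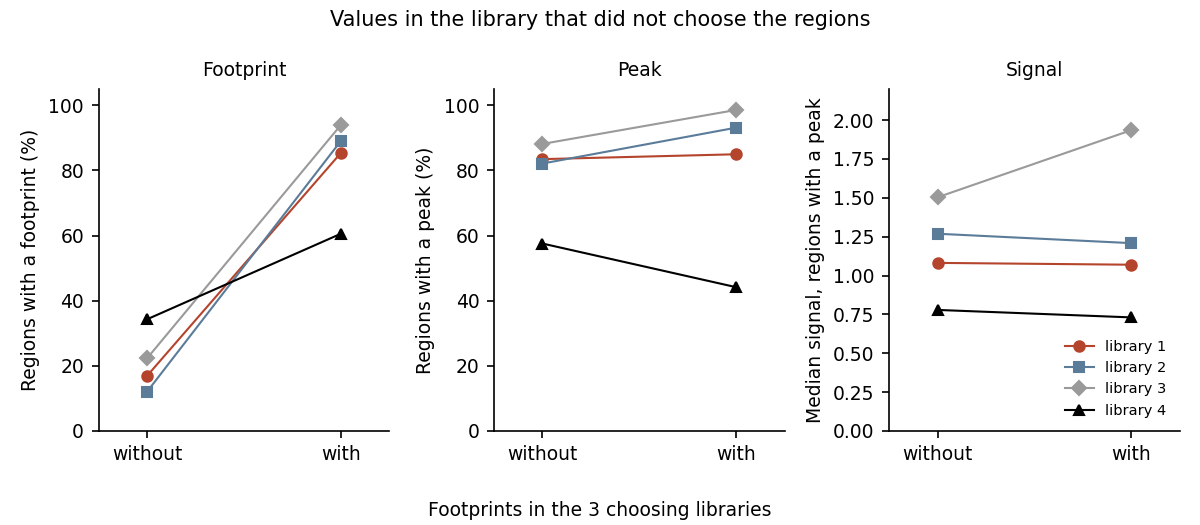
Values in the held-out library for regions chosen on the other 3, without footprints (left of each panel) and with footprints at the same signal (right): percentage with a footprint, percentage with a shorter-list peak, and median deposited signal of regions with a peak. Each marker and line is 1 of 4 libraries; the footprint share is 12.1 to 34.3% without and 60.5 to 93.9% with footprints.

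The regions lay overwhelmingly at gene starts. A protein-coding 5′ end was within 1 kb of 337 of the 416 (81.0%, Wilson interval 77.0 to 84.5%), against 40.5% of open regions with footprints and 21.2% of those at the same signal. A further 48 lay within 1 kb of another annotated transcript start, so that 385 (92.5%) were at a start of some kind, against 51.9%, and 31.9% at the same signal. Of the rest, 12 lay in introns and 19 between genes, against 18.8% and 24.5% of open regions with footprints. Among footprinted regions at the same signal these shares were 27.2% and 34.6%. No region without footprints fell in an exon away from a start. Of footprinted regions at the same signal, 3.48% fell in coding exons and 2.898% in other exons away from a start. The promoter share was higher in regions without footprints on 19 of 19 autosomes, by 60.9 ± 8.99 percentage points at the same signal (SD over autosomes). Autosomes are parts of the same 4 libraries, and this spread describes the genome, not replicates.

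Their place at the start was off-centre. The centre of the 337 promoter regions lay a median of 530 bp downstream of the 5′ end (quartiles 360 to 672), and 289 of them (85.8%) lay inside the gene. Promoter regions with footprints had their median at -10 bp (quartiles -78 to 138), and 45.8% lay downstream. Those of the 4 weakest signal bins were closer to the regions without footprints, with a median of 135 bp, an upper quartile of 588 bp and 65.7% downstream. Between 200 and 1000 bp downstream, a zone chosen after the values were seen, lay the centre of 263 regions without footprints (63.2%), against 7.76% of open regions with footprints and 8.20% of those at the same signal. This difference, too, had the same sign on 19 of 19 autosomes. Counted from any annotated transcript start, the zone held 335 (80.5%), against 14.5% of footprinted regions at the same signal.

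Seen from the gene, absence of footprints was most frequent downstream of the start, with a lesser rise upstream. Among open regions centred 401 to 600 bp downstream, 115 of 661 (17.4%) had no footprint, and among those at 601 to 800 bp, 86 of 557 (15.4%). In the 200 bp just upstream of the 5′ end the count was 8 of 4672 (0.171%). Farther upstream, at -999 to -500 bp, it was 25 of 459 (5.45%). In the 4 weakest signal bins the shares were 12.04% of 191 at -999 to -500 bp, 32.5% of 332 at 401 to 600 bp and 2.02% of 397 in the 200 bp upstream. Of the 48 promoter regions on the upstream side, 21 lay in the same zone downstream of a start on the opposite strand. The share for footprinted regions is not given here. The base at the region centre was in an intron for 227 (54.6%, against 32.5% of open regions with footprints) and in a coding exon for 56 (13.5%, against 4.38%). It was in an exon outside the coding sequence for 76 (18.3%, against a similar 16.5%) and outside genes for 57 (13.7%, against 46.6%). These shares are not matched for signal.

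**Figure D3:**
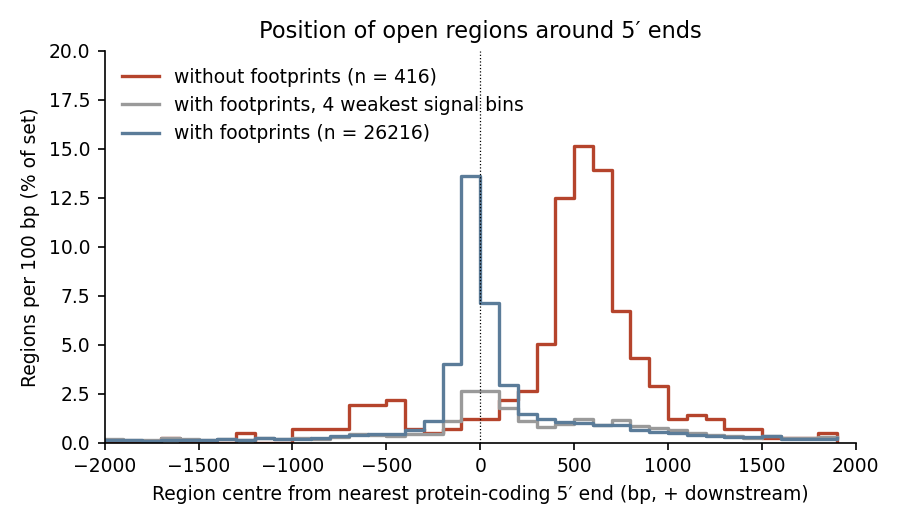
Distance of region centres from the nearest protein-coding 5′ end (horizontal axis, bp, positive downstream) as a percentage of each set per 100 bp, for 416 regions without footprints, footprinted regions of the 4 weakest signal bins, and all 26216 with footprints. The first set peaks between 400 and 700 bp downstream, while the last peaks in the 100 bp upstream of the 5′ end.

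Nearly every region without footprints stood beside a stronger one with footprints. An open region with footprints lay within 1000 bp, a distance also chosen after the values were seen, of 415 of 416 regions (99.8%), against 24.8% of open regions with footprints and 19.6% of those at the same signal. The gap had a median of 220 bp (quartiles 120 to 300), and the centres were a median of 610 bp apart. The gap from an open region with footprints to the next such region had a median of 6840 bp. The 415 regions had 412 distinct neighbours, of which 3 served more than 1. The neighbour was a promoter region for 344 and had footprints in 4 libraries for 398, and the median position of its centre was -25 bp from the 5′ end. Its median number of footprints was 6, 6, 6 and 5 in libraries 1 to 4.

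The neighbours were several-fold stronger. The median signal of the regions without footprints that had a peak in both places was 0.952, 1.07, 1.10 and 0.798 in libraries 1 to 4, against 5.46, 7.07, 9.59 and 7.41 in their neighbours. The median within pairs was 0.186, 0.165, 0.128 and 0.117 of the neighbour's signal (mean 0.149 ± 0.0322, SD, n = 4 libraries). By mean signal 412 of 415 were weaker than their neighbour. Of 344 regions on the downstream side, 296 had their neighbour nearer the 5′ end.

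**Figure D4:**
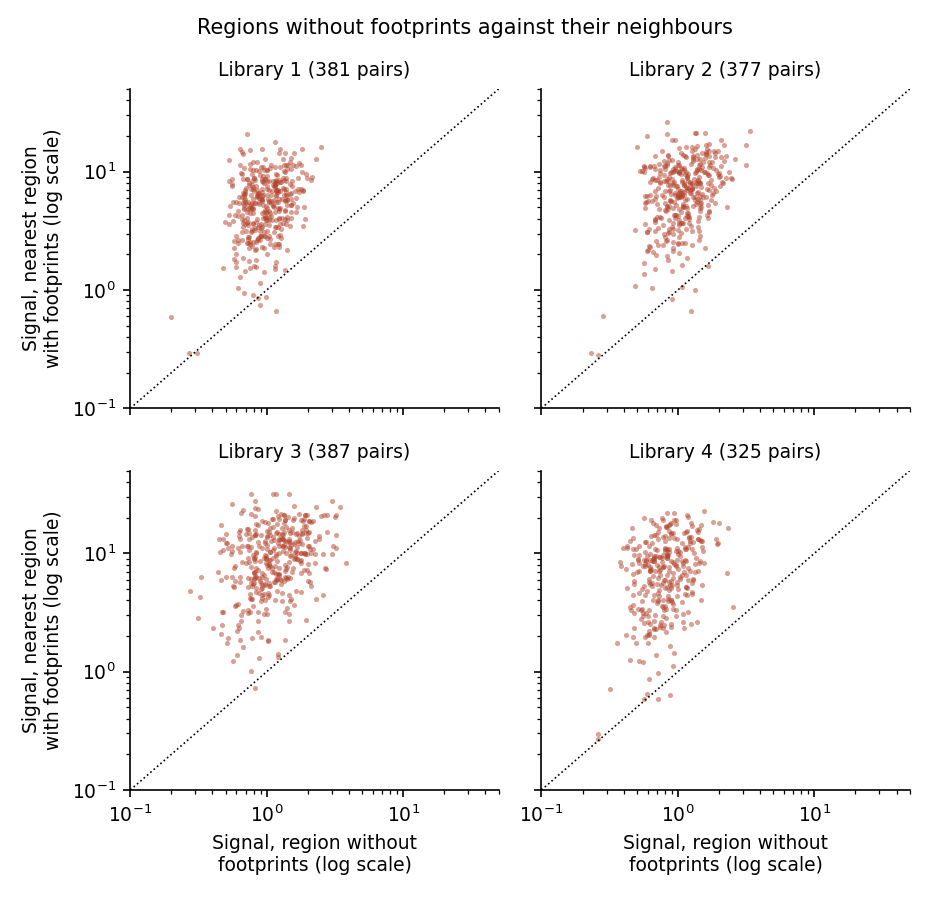
Deposited signal of each region without footprints (horizontal axis, log scale) against its nearest open region with footprints (vertical axis, log scale), 1 panel per library, 325 to 387 pairs with a peak in both. The dotted line marks equal signal, and 98.7 to 99.7% of pairs lie above it.

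The strongest regions show the arrangement gene by gene. The highest signal rank belonged to a 360 bp region in an intron of Zfp143, a zinc-finger factor that binds many promoters, at chr7:110061861-110062220 and 824 bp inside the gene. Its signal was 2.50, 3.40, 3.46 and 2.33 in libraries 1 to 4, and the region 100 bp away averaged 19.9 with 32 footprints over the 4 libraries. Atp1b3, a subunit of the sodium-potassium pump, had its region at chr9:96363621-96364020, 621 bp inside the gene, with 1.81, 2.06, 3.02 and 1.81, next to a region averaging 19.97. Both regions were present in all 4 libraries, and in both the variation between libraries was small beside the step to the neighbour.

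Cd82, a tetraspanin of the cell surface, had signals of 1.81, 2.25, 2.29 and 1.49 at chr2:93461921-93462320, 1019 bp inside the gene. Ino80, the motor subunit of a chromatin remodeller, had 2.15, 2.17, 1.83 and 1.36 at chr2:119476781-119477360, 616 bp inside. Actr3, a subunit of the Arp2/3 complex that branches actin, had 1.50, 1.69, 2.75 and 1.99 at chr1:125434641-125435060. Their neighbours averaged 15.2, 11.6 and 17.3. Rbm15, an RNA-binding partner of the RNA methylation machinery, and Ppp4r3b, a regulatory subunit of protein phosphatase 4, had their region centred on coding exons, at chr3:107332281-107332700 and chr11:29173081-29173620. Sesn3, a stress-induced sestrin, did so too, at chr9:14276461-14276720 and 1524 bp inside the gene, with 2.10, 3.18, 2.41 and 1.94. Of the 12 strongest regions, that of Sfr1, a partner in homologous recombination, was the only promoter region on the upstream side, at chr19:47730701-47730940, with its centre at -861 bp from the 5′ end. Its signals were 1.88, 1.86, 3.80 and 1.30 in libraries 1 to 4.

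The widest regions were all promoter regions. That of Camk2d, a calcium-dependent kinase, spanned 1120 bp at chr3:126596501-126597620 with signals of 1.99, 2.05, 1.71 and 1.32. Those of Stim2, a calcium sensor of the endoplasmic reticulum, and Kdm2a, a histone demethylase that recognises unmethylated CpGs, spanned 980 and 920 bp at chr5:53998561-53999540 and chr19:4397681-4398600. Itprid2 (916 bp) and Tmem65 (915 bp) followed. The shortest footprints in the lists measured 7 bp, and none lay in these stretches in any library.

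Away from annotated starts there were 31 regions, and 5 of these had a CpG-island-like centre. The strongest, chr2:122377681-122378080, had the gene of Shf, an SH2 adaptor, as the nearest, with its centre at -8719 bp, and signals of 2.28, 2.64, 3.15 and 1.98. In the RefSeq annotation it spans a transfer RNA gene for histidine, n-THgtg5, at chr2:122377968-122378039, and its footprinted neighbour spans a second, n-THgtg3, at chr2:122377363-122377434. Over the whole set, 1 of 416 regions overlapped a transfer RNA gene and 5 lay within 1 kb of such a gene, among them regions near Polr3e, a subunit of the polymerase that transcribes transfer RNAs, and near Stx11, a membrane fusion protein of cytotoxic granule release. The overlapping share was 0.240%, against 0.626% of open regions with footprints and 0.111% of those at the same signal. The share within 1 kb was 1.20%, against 0.854% of open regions with footprints and 0.267% of those at the same signal. This look at transfer RNA genes was added after the values were seen.

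The mean signals of the 31 regions ran from 0.198 to 2.51, with medians of 0.831 in introns and 0.838 between genes, against 0.856 at promoters. A region in an intron of Chrna9, a nicotinic acetylcholine receptor subunit, at chr5:65955401-65955840, had 1.83, 1.70, 3.23 and 2.28, and that 21663 bp from the start of Ccne1, cyclin E1, at chr7:38085561-38086180, had 1.63, 1.70, 3.22 and 1.56, and the Chrna9 region is within 1 kb of an mRNA start in RefSeq. Of the 31 regions 6 (19.4%) had a RefSeq start within 1 kb, against 5.87% of footprinted regions away from GENCODE starts at the same signal. The 3 weakest regions of all sat within a span of 9580 bp at the start of the chromosome 4 assembly, at chr4:3059501-3060040, chr4:3066781-3067620 and chr4:3068581-3069080. Their mean signals were 0.199, 0.198 and 0.200, they had no peak in library 3, and 31.3%, 68.0% and 48.0% of their central window was repeat-masked, against a median of 0 over the set.

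The centres of the regions were rich in GC and CpG. In the central 150 bp, GC content was 63.2% ± 10.1 (SD over 416 regions), against 58.6% ± 9.39 in open regions with footprints and 54.9% in those at the same signal. The ratio of observed to expected CpG was 0.716 ± 0.260, against 0.550 ± 0.341, and 0.400 at the same signal. A CpG-island-like centre, with at least 50% GC and a ratio of at least 0.6, was found in 261 regions (62.7%), against 42.1%, and 21.2% at the same signal. Each difference had the same sign on 19 of 19 autosomes. With width balanced as well as signal, the difference in CpG ratio was 0.221 in place of 0.315.

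That composition was shared with footprinted regions in the same place. In the zone 200 to 1000 bp downstream of the 5′ end, 263 regions without footprints had a mean GC content of 65.6% and a CpG ratio of 0.771, against 64.5% and 0.728 in footprinted regions of that zone at the same signal. What still differed there was the company: 100% of the regions without footprints had a footprinted open region within 1000 bp, against 71.3%. The footprinted neighbours of the set were richer still than the regions themselves, with mean GC contents of 63.2% in the regions and 66.6% in the neighbours and CpG ratios of 0.716 and 0.873.

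Exact matches to 29 consensus motifs were searched on both strands of the central 150 bp. At least 1 motif was present in 150 of the 416 regions. CTCF had the greatest gap, with 2 regions (0.481%, Wilson interval 0.132 to 1.74%), against 8.72% of open regions with footprints and 12.7% of those at the same signal. The difference at the same signal was -12.3 percentage points, and with width balanced as well as signal it was -1.29. In the zone downstream of the 5′ end, CTCF matched 0 of 263 regions, which allows up to 1.14%, and 1.18% of footprinted regions at the same signal. The 2 regions with a CTCF match were that distal to Esyt3 (0.740, 0.685, 0.656 and no peak in libraries 1 to 4) and one near Irf7, the interferon regulatory factor, at chr7:141265101-141265380 (1.20, 1.42, 1.49 and 0.942).

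Some motifs of lymphoid factors were less frequent at the same signal. The lymphoid ETS motif (CAGGAAGT), which shares its last letters with the PU.1 motif (GAGGAAGT), matched 5 regions (1.20%), against 4.28% of footprinted regions at the same signal, and AP-1 (TGANTCA) matched 2.88%, against 5.34%. RUNX (TGTGGTTT) matched 1.20%, against 2.57%, and T-box (AGGTGTGA), the family of the natural killer factors Eomes and T-bet, 0.962%, against 1.31%. PU.1 matched 2.16%, against 2.88%. For RUNX, T-box and PU.1 the share in footprinted regions lay within the counting interval. Within the zone downstream of the 5′ end, lymphoid ETS matched 0.760% of the regions without footprints, against 1.10% of footprinted regions at the same signal. There AP-1 matched 2.28%, against 2.31%, PU.1 1.52%, against 1.52%, and T-box 1.14%, against 0.601%. Of the 29 motifs, 22 were less frequent than in footprinted regions at the same signal and 7 more frequent. The share in footprinted regions lay outside the counting interval for 6 of the less frequent ones (CTCF, lymphoid ETS, AP-1, C/EBP, the E protein E-box and TCF/LEF) and for NRF1 among the others, with 3.13% against 1.82%. Within the downstream zone NRF1 went the other way, with 3.42%, against 4.14% of footprinted regions at the same signal. So did C/EBP, with 3.04%, against 2.84%. The E protein E-box (11.0%, against 14.1%) and TCF/LEF (0.380%, against 0.734%) kept their direction there. For 6 motifs there was no match in the set, which allows a share of up to 0.721% (3 counts of 416).

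Against their own neighbours the pattern was another one. Promoter motifs were frequent in the 412 neighbours and rare in the 415 regions beside them. SP/KLF matched 2.65% of the regions without footprints, against 20.6% of their neighbours. NRF1 matched 3.13%, against 17.5%, NF-Y (CCAATNAG) 1.45%, against 9.47%, and ETS of the GABPA type 0.241%, against 5.58%. The neighbours were matched for neither signal nor position. Among footprinted regions at the same signal as the 416, SP/KLF matched 2.62%, NRF1 1.82%, NF-Y 1.79% and ETS of the GABPA type 0.973%. Of the 29 motifs, 19 were less frequent in the regions than in the neighbours and 9 more frequent, among them the E protein E-box, with 11.3% in the regions and 7.77% in the neighbours, and PU.1, with 2.17% and 0.485%. RUNX, T-box, AP-1, KLF, GATA, C/EBP and TEAD were the others, with gaps below 1 percentage point. At least 1 motif was present in 35.9% of the regions and in 66.0% of the neighbours.

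**Figure D5:**
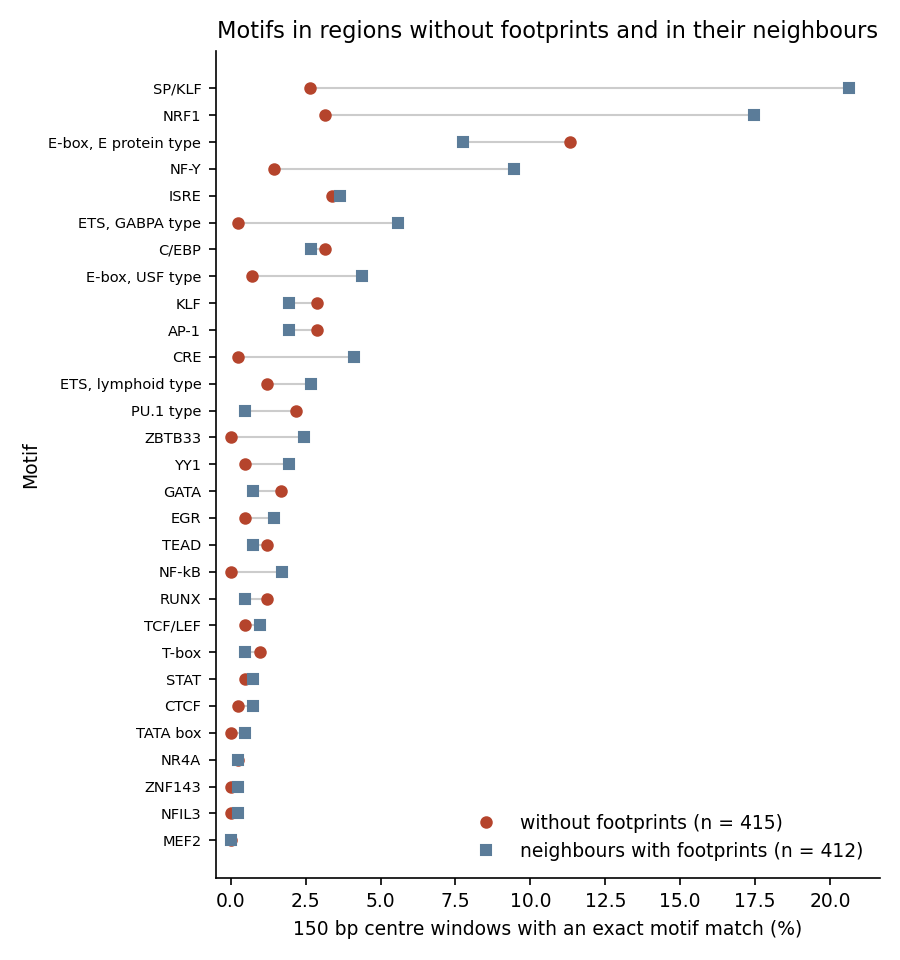
Percentage of central 150 bp windows with an exact match to each of 29 motifs (horizontal axis), for 415 regions without footprints (circles) and their 412 neighbours with footprints (squares). The greatest gaps are SP/KLF at 2.65% against 20.6% and NRF1 at 3.13% against 17.5%.

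Few genes of the lists carried such a region, as few did among all genes. An open region at the promoter was found for 9914 of 20807 autosomal protein-coding genes, and 384 of these (3.87%) had a region without footprints there. Of 61 natural killer genes with an open promoter, 1 had such a region, and of 17 housekeeping genes 2 did. None of the open promoters of the T cell, B cell, myeloid and erythroid or stromal lists (4 to 8 per list) had such a region. The natural killer gene was Tgfbr2, a receptor for transforming growth factor beta. Its region, chr9:116174539-116174960, had 1.14, 1.13 and 0.759 in libraries 1, 2 and 4 and no peak in library 3, beside a neighbour that averaged 3.62. The housekeeping genes were Vcp, an ATPase that unfolds ubiquitinated proteins (1.48, 1.49, 1.84 and 1.08), and Rab7, a GTPase of late endosomes (1.01, 0.735, 0.556 and 0.605). Both regions lay inside the gene, by 616 and 654 bp.

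The regions were scattered. Between 12 and 39 lay on each autosome, 1.05 to 2.37% of the open regions there. With a gene taken as its body and 25 kb on either side, 740 genes had 1 region, 14 had 2 and none had more. In these libraries the promoters of Ncr1, Eomes, Prf1, Gzmb and Il2rb, markers of natural killer cells, were open, those of Klrb1c, Klrk1 and Tbx21 were not by this rule, and neither were those of the T cell genes Cd3e and Cd3d, the B cell gene Cd79a, the myeloid genes Csf1r and Lyz2 or the epithelial gene Epcam.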

How the data were processed

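DNase-seq was analysed from processed files of 4 libraries. Per the deposited readmes, the authors derived peaks and FDR values from each library's own filtered alignments to mm10, without pooling, and footprints from the FDR list, the alignments and 2 reference files. For the aligner, callers, versions and read depth, nothing is given in the sources used. The deposited peak signal has no stated unit, so levels are compared within a library. The deposited FDR values, read as q-values, list bases below 0.05. The deposited footprints carry a constant of 0.01.

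A few shorter-list peaks (339 to 874 per library) were absent from the longer list, so a region takes its highest signal from either list. Overlap required 1 bp. Genes came from GENCODE vM21 and sequence from GRCm38.p6. Values at the same signal weight regions with footprints to the distribution of those without over 10 signal bins. Held-out values were tested by exact two-sided sign flips over 4 libraries with Benjamini-Hochberg adjustment over 3 tests. Scripts used Python 3.11.15, NumPy 2.4.6, pandas 2.3.3 and SciPy 1.17.1, and were tested on simulated data. Named regions are the 12 with the highest mean signal rank, the 5 widest, the 3 strongest per location class, those at promoters of listed genes, and up to 2 per motif for CTCF, RUNX, T-box and ETS; not all are printed, and the values of some listed marker genes are not reported here. The members, lists and motifs were chosen with earlier results of these data known. Wilson intervals and limits cover counting error only.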

Additional observations from a re-analysis of the deposited data

Results flagged for a closer look

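In library 4, 68.8% of the regions without footprints had a shorter-list peak, far below the 90.4 to 93.0% of the other 3 libraries. Library 4 was also the lowest for open regions with footprints, at 79.8%, against 96.2, 98.5 and 99.6% in libraries 1 to 3. Put as a count, 130 regions without footprints lacked a shorter-list peak only in library 4, and 90 had no peak of either list there. In library 3, the ratio of median signals, without over with footprints, was 0.379, far from the 0.506 to 0.529 of the others. Among the named regions, the one distal to Ccne1 had a signal of 3.22 in library 3, far above its 1.56 to 1.70 elsewhere. The one nearest Dnah17, in an intron of Cyth1, had no peak (0) in library 3, that distal to Esyt3 none (0) in library 4, and that at Tfam none (0) in library 1. These are values of a single library whose gap to the next, as a share of the range over 4 libraries, passed Dixon's critical value. They are a description and no test, since peaks and signal were used in the choice, the choice allows 1 absent peak (entered as 0), and the scale of the signal between libraries is not stated. Of 50 sets of 4 values looked at, 7 passed. The sets come from the same 4 libraries, and the share and the count of peaks in library 4 are the same observation. The 7 can therefore not be set against a chance rate.

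The X chromosome was outside the choice of regions. By the same rule it held 8 regions without footprints among 604 open regions (1.32%), with a median mean signal of 0.608, against 1.84 in its open regions with footprints.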

How the results depend on the processing

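Over 159 alternative values of 13 results, 106 stayed within the spread used for each, 51 moved beyond it and 2 turned in sign. The number and share of regions without footprints were 182 and 0.928% with a peak required in 4 libraries, 779 and 2.40% with 2, and 1678 and 6.30% with only shared footprints counted. Leaving out 1 library gave 257 to 490 regions and 1.28 to 1.95%. The signal ratio was 0.412 with 4 libraries required, and 0.395 to 0.464 without 1 library. The promoter difference was 55.7 with 4 libraries required, 39.6 with shared footprints, 44.8 with width balanced, 40.5 without standardisation, 48.3 with a 500 bp window, and 53.8 to 58.0 without 1 library. The CpG and GC differences were 0.190 and 4.90 with shared footprints, 0.221 and 5.94 with width balanced, and 0.165 and 4.62 without standardisation. The downstream difference, an added result, was 50.1 with 2 libraries, 33.2 with shared footprints, 47.4 with width balanced and 66.0 from any transcript start. The neighbour difference, also added, was 80.7 with 4 libraries, 74.4 with 2, 57.0 with shared footprints, 67.4 with width balanced, 74.97 without standardisation, 81.3 within 500 bp, 39.4 within 200 bp, and 79.7 to 81.3 without 1 library. Without standardisation the held-out peak difference was -15.0 and the held-out signal ratio 0.439; without 1 library that ratio was 0.957 to 1.01, turning in sign without library 3 (1.01) or 4 (1.00). The cause of these moves was not tested. The count of less frequent motifs was 20 to 25.

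No paired analysis between groups was possible because the 4 libraries form 1 group with no second group to pair them with by number. The held-out differences and the neighbour ratios are paired within a library and set regions against regions. Read depth is unknown. The files give no cut numbers, the share without footprints moved with signal, and the part of depth in it was not tested. Reads of the B6CASTF1/J hybrid were aligned to a single reference.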

Other observations

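Other regions named by motif had these values, each beside a footprinted neighbour within 1000 bp. A RUNX match lay in the region at Suco (chr1:161875801-161876540; 1.01, 1.34, 1.89 and 0.932 in libraries 1 to 4) and in that upstream of Lmna, the gene of nuclear lamins A and C (chr3:88510841-88511518; 1.18, 0.936 and 1.30, with no peak in library 4). A T-box match lay in the region at Gem, a small GTPase (chr4:11704621-11705050; 0.987, 1.61, 2.06 and 0.961), and in that at Ddx43, an RNA helicase (chr9:78396121-78396445; 0.952, 0.846, 1.37 and 0.577). The single match to the GABPA type of ETS motif lay at Tuba1c, an alpha-tubulin gene (chr15:99030641-99030920; 1.19, 1.19, 1.81 and 1.04). The regions at Tfam, the mitochondrial transcription factor, and Tnks2, a tankyrase, held the lymphoid ETS motif, and each lacked a peak in a single library.

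A repeat-masked share of at least 50% in the central window was found in 7 regions without footprints, and 299 had no masked base there. These counts are not given for open regions with footprints. The mean masked share was 5.95% in the regions without footprints. It was 7.13% in open regions with footprints and 9.69% in those at the same signal.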
